A study of Sorghum bicolor with 16 samples.

Results

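Class III peroxidases are secreted heme enzymes that plants use to build and to loosen their walls, and this account covers the genes of a sweet sorghum (Sorghum bicolor) root expression table that are annotated to peroxidase activity. A gene was taken where its Gene Ontology column held the whole term peroxidase activity and none of the terms glutathione peroxidase activity, L-ascorbate peroxidase activity or catalase activity. The term was found on 165 genes, 4 were left out for L-ascorbate peroxidase activity, and 161 of the 29033 genes of the table remained. Of these, 139 carried the orthology code of class III peroxidases. The other 22 did not: 7 carried the code of respiratory burst oxidases, 4 that of peroxiredoxins, 1 another code and 10 none. The name class III peroxidase is therefore used below only for the 139, and the 161 are called peroxidase-annotated genes.

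The RNA came from roots at the 3-leaf phase of 2 strains, Roma, which the labels call sensitive to salt, and M-81E, which they call tolerant. The 4 groups were Roma under salt, Roma control, M-81E under salt and M-81E control, and no genetic change is named for either strain. The labels give 2 biological replicates for each group, each as a library enriched with an antibody against N6-methyladenosine (m6A, a methyl mark on RNA) and as an input library, or 16 samples in all. Neither the salt dose nor its duration is stated in the labels. The expression values are FPKM, fragment counts scaled by transcript length and library size, which allow levels of different genes to be set side by side. The labels place the 8 columns of values with the antibody-enriched samples, while the names of the peak lists give the same column names to the samples those were compared with. If enriched fragments were counted, a difference in FPKM can be a difference in RNA level or in m6A, and these cannot be told apart.

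In plants, class III peroxidases oxidise phenolic compounds with hydrogen peroxide, which couples lignin and cross-links wall polymers, and they can also generate reactive oxygen species that loosen walls. They form large gene families in grasses, with many copies side by side on a chromosome. Respiratory burst oxidases are membrane enzymes that make superoxide outside the cell from which hydrogen peroxide forms. Peroxiredoxins remove peroxides through a cysteine and need no heme.

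One library stood apart before any comparison. M-81E control replicate 2 had lower values than replicate 1 for 94 of the 112 peroxidase-annotated genes with a mean of at least 1 FPKM. The median log2 difference between these replicates (of FPKM + 1) was -0.92, against 0.10 over all 16280 genes with such a mean. In the other 3 groups the same median lay between -0.14 and -0.04 for the peroxidase-annotated genes. Genes annotated to the nucleosome, taken as a sign of dividing cells, summed to 519 FPKM in that library, 1656 FPKM in its replicate and 1895 to 2808 FPKM in the other 6 libraries, with 12 of the 42 genes at 0 there and 6 to 11 in the others. The part of this in the results was not tested. Genes of green shoot tissue (photosystems and chlorophyll binding) summed to 0.0517% to 0.0967% of a library's FPKM and root genes (Casparian strip and root hair) to 0.883% to 0.960% in Roma and 0.631% to 0.712% in M-81E. M-81E control replicate 2 had both the highest share of green shoot genes and the lowest share of root genes. The part of these shares in the strain and salt results was not tested.

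Most peroxidase-annotated genes were detected, and a few held much of the signal. Of the 161, 124 were above 0 in every library and none was at 0 in all, 112 had a mean of at least 1 FPKM over the 8 libraries, 38 at least 20 and 3 at least 100. The 49 genes with a mean under 1 were not tested, although 15 of them reached 1 FPKM in some library. The 2 most abundant genes held 19.6% of the summed mean FPKM, the first 10 held 43.1% and the first 20 held 61.3%. Summed over all 161, the level was 2238 and 2400 FPKM in Roma salt, 3194 and 3202 in Roma control, 3467 and 3487 in M-81E salt, and 4315 and 1736 in M-81E control. The Roma salt libraries lay below both Roma control libraries and below both M-81E salt libraries, and the M-81E salt libraries lay between the 2 M-81E control libraries. In bulk tissue, fewer cells of a type and less RNA per cell cannot be told apart.

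SORBI_3009G055100, a class III peroxidase annotated to cell wall organization, was the most abundant, with a mean of 332 FPKM, rank 100 among all genes of the table. It had 100.1 and 133 FPKM in Roma salt, 156 and 256 in Roma control, 394 and 472 in M-81E salt, and 797 and 347 in M-81E control. Every Roma library was below every M-81E library. SORBI_3009G145500, a class III peroxidase with neither of the wall annotations, had 191 and 149 FPKM in Roma salt, 315 and 342 in Roma control, 194 and 271 in M-81E salt, and 478 and 122 in M-81E control, a mean of 258. Its salt libraries lay below its control libraries in Roma, and between them in M-81E.

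SORBI_3003G140700, annotated to cell wall organization and the only other gene with a mean over 100 FPKM, had 64.6 and 54.3 FPKM in Roma salt, 212 and 214 in Roma control, 122 and 132 in M-81E salt, and 178 and 68.9 in M-81E control. The Roma control libraries were the highest and the Roma salt libraries the lowest of the 8. SORBI_3006G079300, annotated to lignin synthesis, had 52.7 and 42.4 FPKM in Roma salt, 136 and 125 in Roma control, 154 and 107 in M-81E salt, and 113 and 15.6 in M-81E control. Its lowest library was M-81E control replicate 2. The next genes by mean, from 97.5 to 65.4 FPKM, were SORBI_3005G011300, SORBI_3003G121100, SORBI_3005G011500 and SORBI_3003G183300, all annotated to lignin synthesis, with SORBI_3009G145600, which has neither wall annotation, and SORBI_3006G277800, described with its cluster.

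**Figure D1:**
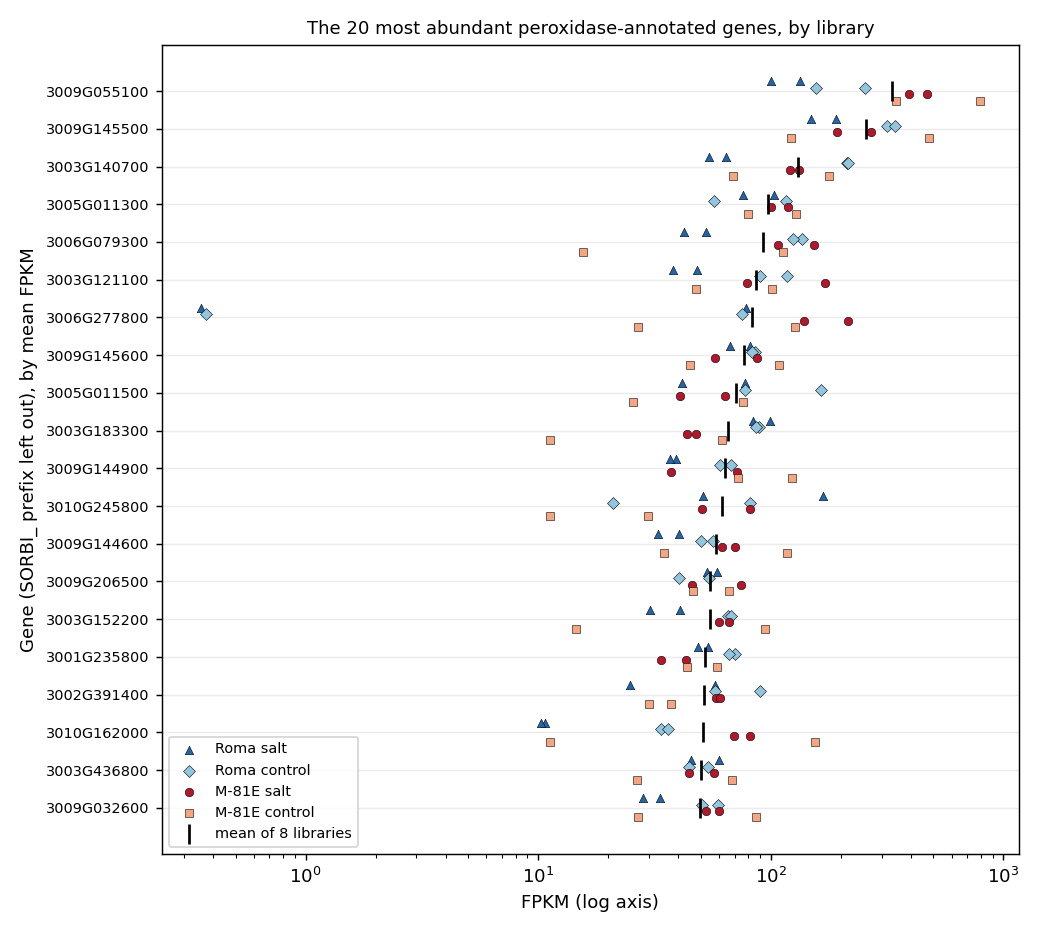
FPKM (log axis) of the 20 most abundant peroxidase-annotated genes in each of the 8 libraries, with 2 libraries per group and a bar at the mean of all 8; symbols mark Roma salt, Roma control, M-81E salt and M-81E control. SORBI_3009G055100 is highest with a mean of 332 FPKM, and SORBI_3006G277800 has a Roma salt and a Roma control library at 0.354 and 0.374 FPKM beside others at 78.5 and 75.5.

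By annotation, 78 of the class III peroxidases belong to plant-type cell wall organization, 32 to lignin synthesis and 29 to neither. The cell wall group held 45.0% of the summed mean FPKM, the lignin group 21.1% and the others 24.7%. Respiratory burst oxidases held 3.79% and peroxiredoxins 2.01%. Summed over its 78 genes, the cell wall group had 888 and 843 FPKM in Roma salt, 1431 and 1338 in Roma control, 1837 and 1633 in M-81E salt, and 2053 and 786 in M-81E control. The 7 respiratory burst oxidases summed to 124 and 130.3 FPKM in Roma salt, 116 and 101 in Roma control, 98.4 and 128 in M-81E salt, and 93.6 and 120.2 in M-81E control. M-81E control replicate 2 was the lowest library for the cell wall group and lay inside the range of the others for the oxidases.

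Many of the genes sat side by side, 57.8% of them. With at most 1 other gene of the table allowed between neighbours, in the order of the locus numbers, 93 of the 161 genes formed 26 runs of 2 to 11, and all 93 were class III peroxidases. The median of the mean FPKM was 5.79 for genes in a run and 2.61 for the 68 outside. In the 18 runs of 3 or more genes, the highest gene held over 50% of the summed mean FPKM in 14, and its median share was 70.2%. The other 8 runs are pairs, where the higher gene holds at least 50% by arithmetic. Of the 20 most abundant genes, 14 were in a run. Neighbouring copies can share reads, and the sources do not say how such reads were assigned, so values of single copies are uncertain.

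The longest run, of 11 genes on chromosome 2 from SORBI_3002G391200 to SORBI_3002G392300, had means from 0.0421 to 51.9 FPKM. SORBI_3002G391400 was highest, at 24.8 and 57.8 FPKM in Roma salt, 89.7 and 57.6 in Roma control, 58.0 and 60.4 in M-81E salt, and 37.3 and 30.0 in M-81E control. Both M-81E salt libraries and 1 of each Roma group lay between 57.6 and 60.4. SORBI_3002G392000, with a mean of 39.9, and SORBI_3002G391800, with 12.8, had both M-81E salt libraries above both M-81E control libraries and both Roma salt libraries below both Roma control libraries. SORBI_3002G391300 (mean 12.4) rested on M-81E salt replicate 2, with 58.2 FPKM against 0.874 in replicate 1, and SORBI_3002G392100 had a mean of 11.9. All 5 are annotated to cell wall organization.

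The run of 7 genes on chromosome 4, all between SORBI_3004G105100 and SORBI_3004G106100, had 2 genes with a mean of at least 1 FPKM. SORBI_3004G105100, annotated to lignin synthesis, had a mean of 10.9 FPKM and held 71.5% of the run's sum, and the lowest gene had a mean of 0.00363.

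In the run of 5 on chromosome 6, SORBI_3006G277800 had 78.5 and 0.354 FPKM in Roma salt, 0.374 and 75.5 in Roma control, 215 and 139.7 in M-81E salt, and 127 and 27.0 in M-81E control. One library of each Roma group was thus below 0.4 FPKM, while all M-81E libraries were far above that. Its neighbour SORBI_3006G277600 was listed at 0 in both Roma control libraries and in replicate 2 of both M-81E groups, beside 38.4 and 30.4 FPKM in replicate 1 of M-81E salt and M-81E control, and had 31.3 and 3.15 in Roma salt. SORBI_3006G277700 had a mean of 6.56 FPKM, with 4.45 and 14.7 in Roma salt against 10.9 and 0.186 in Roma control. SORBI_3006G277500 had 2.29 and 4.47 FPKM in Roma salt, 8.49 and 5.41 in Roma control, 47.7 and 28.8 in M-81E salt, and 16.4 and 5.83 in M-81E control. Here the replicates of each group stood closer, and the M-81E salt libraries were the highest.

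The 5-gene runs on chromosome 2 (SORBI_3002G416500 to SORBI_3002G416900) and chromosome 10 (SORBI_3010G161600 to SORBI_3010G162000) are annotated to lignin synthesis. SORBI_3002G416600 was highest in the first, with a mean of 36.9 FPKM, and its neighbour SORBI_3002G416700 had 13.1. SORBI_3010G162000, the highest of the second, had 10.7 and 10.3 FPKM in Roma salt, 33.7 and 36.2 in Roma control, 81.8 and 69.5 in M-81E salt, and 156 and 11.2 in M-81E control, and SORBI_3010G161800 had a mean of 18.0. Roma salt replicates were the lowest libraries, and M-81E control held both the highest value and one near the lowest.

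Replicates over 8-fold apart, with 5 FPKM in at least 1 of them, were met 26 times in 18 peroxidase-annotated genes. Of these genes, some of which were not tested, 14 were in a run, as were 93 of all 161 and 67 of the 112 tested. In M-81E control they made up 13 of the 79 genes that reached 5 FPKM (16.5%, against 6.06% over all genes of the table). In the other groups they were 4 or 5 of 79 or 80. The shares were 6.25% in Roma salt (all genes 3.84%), 5.06% in Roma control (3.72%) and 5.06% in M-81E salt (5.32%). SORBI_3005G051500, outside the runs, was listed at 0 in 1 library of every group and had 48.7 FPKM in an M-81E salt library.

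**Figure D2:**
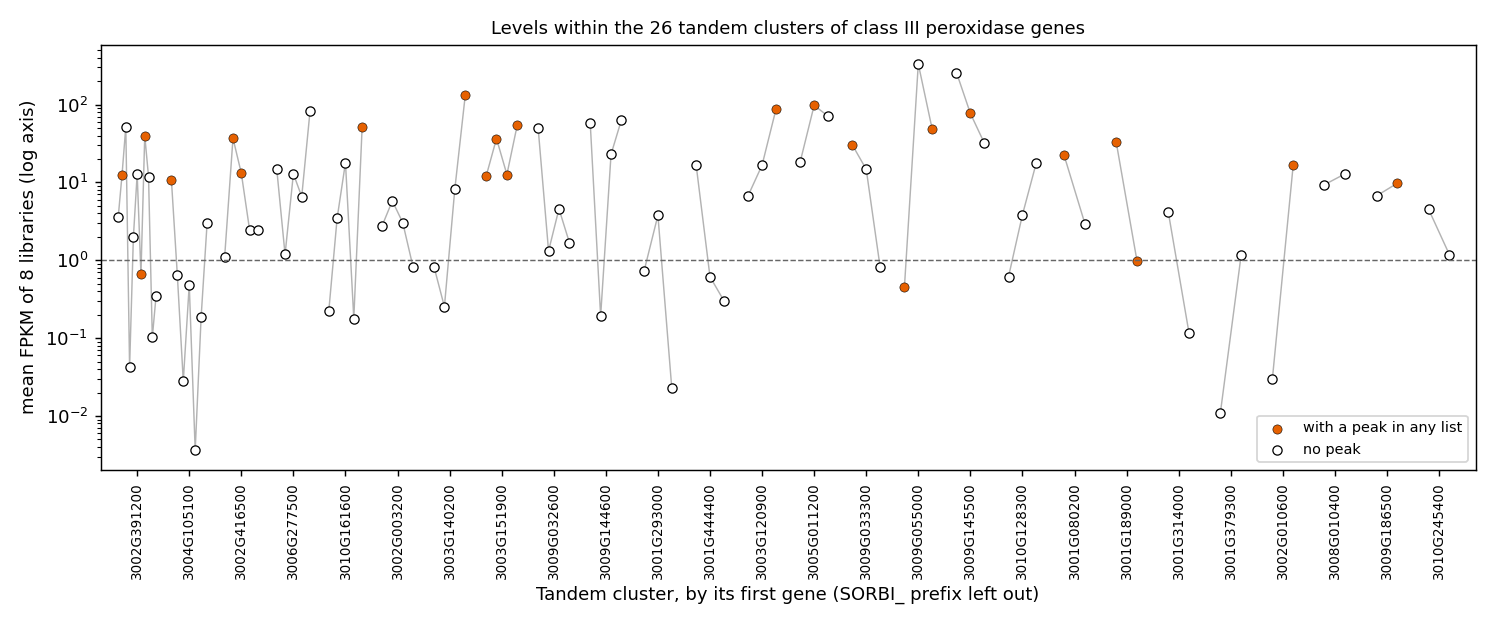
Mean FPKM over the 8 libraries (log axis) of the 93 class III peroxidase genes in their 26 tandem runs, in gene order within each run; filled points mark genes with a peak in any list and the dashed line marks 1 FPKM. In 14 of the 18 runs of 3 or more genes the highest gene holds over 50% of the run's summed mean.

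The next comparison asked how peroxidase-annotated genes differed between salt and control roots of Roma. Of the 112 genes tested, 40 had a higher mean under salt, the median log2 change was -0.23 and the median over all 16280 genes was -0.03. None passed an adjusted p of 0.05 in limma, 14 had an unadjusted p under 0.05 (12.5%, against 11.8% of all genes) and the smallest adjusted p was 0.134. Over all genes, 0.473% passed, 0.332% as higher and 0.141% as lower. Both salt libraries were below both control libraries for 49 of the 112 genes (43.8%, against 32.3% of all genes) and above both for 19 (16.96%, against 27.2%).

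Of the 51 tested genes of the cell wall group, 35 had a negative change, with a median of -0.39, and of the 24 of the lignin group 18, with a median of -0.40. The 20 other class III peroxidases had a median of -0.22. Among the 5 tested respiratory burst oxidases 4 had a positive change, with a median of 0.07, and all 3 tested peroxiredoxins were positive.

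The largest negative changes among genes with a mean of at least 5 FPKM and no overlap of the groups were close to each other. They were -1.83 ± 0.43 (SE) for SORBI_3003G140700, described above (adjusted p = 0.179), -1.82 ± 0.35 for SORBI_3002G416700 (adjusted p = 0.134) and -1.81 ± 0.69 for SORBI_3002G391800 (adjusted p = 0.381). SORBI_3002G416700 had 5.996 and 5.01 FPKM in Roma salt, against 22.1 and 21.6 in Roma control. SORBI_3010G162000 and SORBI_3001G189000 followed with -1.65 and -1.64. In the other direction stood SORBI_3006G277600, listed at 0 in Roma control, then SORBI_3007G192300 with 32.8 and 28.7 FPKM in Roma salt against 9.93 and 11.0 in Roma control, SORBI_3008G010500, SORBI_3009G144800 and the respiratory burst oxidase SORBI_3003G347520. This oxidase had 24.4 and 25.7 FPKM in Roma salt, against 16.7 and 16.1 in Roma control, a log2 change of 0.58 ± 0.22 (adjusted p = 0.391).

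In M-81E the salt comparison turned on which control library was used. With both, 88 of the 112 genes had a higher mean under salt, the median log2 change was 0.48 (all genes -0.05), and no gene passed in limma, with 17 at an unadjusted p under 0.05 (15.2%, against 12.8% of all genes) and a smallest adjusted p of 0.0726. Over all genes, 0.491% passed, 0.209% as higher and 0.283% as lower. Both salt libraries were above both control libraries for 34 of the 112 (30.4%, against 18.3% of all genes) and below both for 5 (4.46%, against 19.4%).

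Leaving out M-81E control replicate 2 gave a median of 0.05, and 63 of 112 genes were positive and 0 passed. Leaving out replicate 1 gave 0.96, and 30 genes passed as higher and 3 as lower (29.5% of the 112 genes, against 19.1% of all genes in that setting). Set against replicate 1 alone, both salt libraries were above it for 38 genes (33.9%, against 36.7% of all genes) and below it for 33 (29.5%, against 31.6%). The cell wall group had a median of 0.70 with all libraries and 0.27 without replicate 2, and the lignin group 0.53 and -0.01.

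SORBI_3010G149700, a class III peroxidase annotated to lignin synthesis, had 2.08 and 1.77 FPKM in M-81E salt, against 10.3 and 8.04 in M-81E control, a log2 change of -1.79 ± 0.26 (SE; adjusted p = 0.0726). Both salt libraries were below both control libraries, whose replicates were close together. The largest positive changes without overlap, 2.46 to 1.94, were those of SORBI_3007G192300, SORBI_3002G391800, SORBI_3009G186500 and SORBI_3009G033400, and SORBI_3003G140600 had 16.9 and 19.3 FPKM in M-81E salt against 0.531 and 14.7 in M-81E control. SORBI_3007G192300, one of 4 peroxidase-annotated genes that also carry the term response to salt stress, had 50.0 and 28.1 FPKM in M-81E salt, against 21.0 and 1.22 in M-81E control, and its salt libraries were also above its control libraries in Roma. SORBI_3002G223100, another of the 4, had 4.50 and 3.94 FPKM in Roma salt against 2.68 and 2.01 in Roma control, and 1.80 and 1.80 in M-81E salt against 0.970 and 0.115 in M-81E control. SORBI_3009G186500, annotated to cell wall organization, had 7.62 and 15.6 FPKM in M-81E salt, against 4.14 and 0.869 in M-81E control. At a mean of at least 5 FPKM, the negative changes without overlap were those of SORBI_3002G416700 (-0.96), SORBI_3009G144900 (-0.86) and SORBI_3001G235800 (-0.40).

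**Figure D3:**
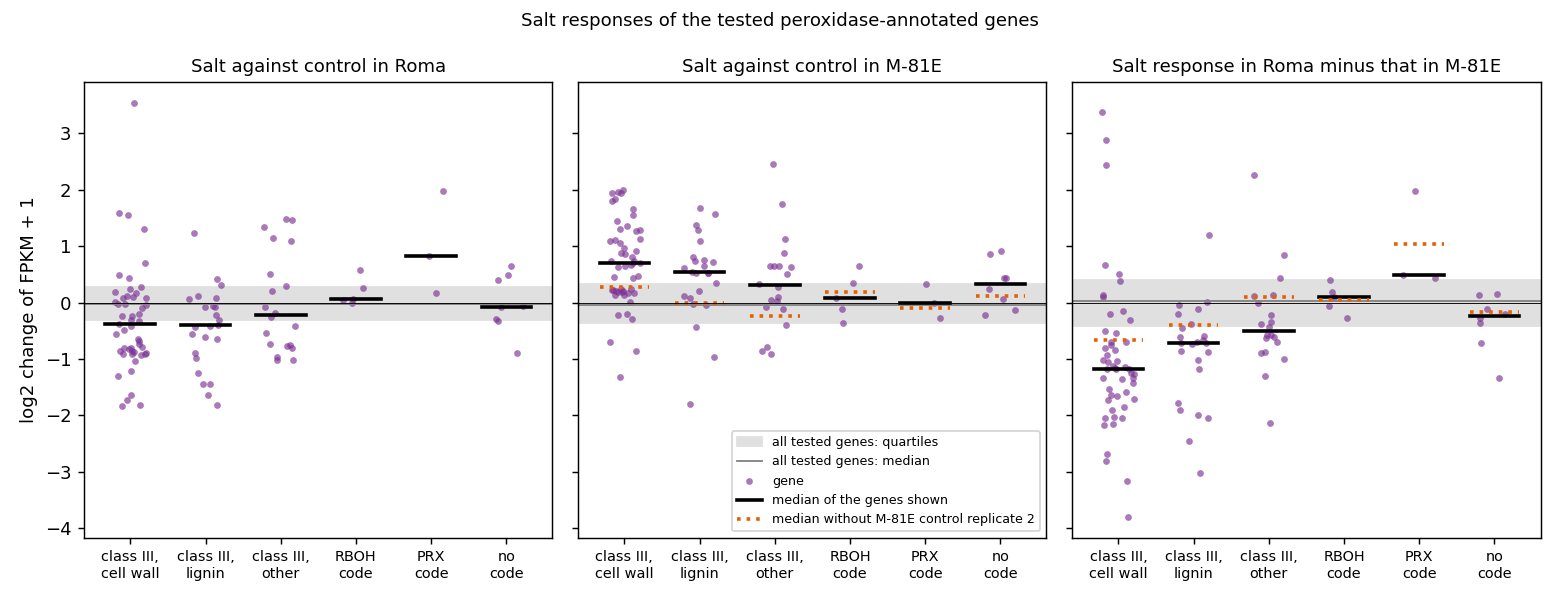
Log2 change of FPKM + 1 of each tested gene by annotation for salt against control in Roma, salt against control in M-81E and the difference of the 2 responses; black bars are medians, dotted bars medians without M-81E control replicate 2, and the grey band and line the quartiles and median of all 16280 tested genes (RBOH is respiratory burst oxidase, PRX is peroxiredoxin, and the 1 gene of another code is not drawn). The cell wall group has a median of -0.39 in Roma and 0.70 in M-81E, or 0.27 in M-81E without that library.

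The responses were also set against each other, as the response in Roma minus that in M-81E. The median over the 112 genes was -0.71, against 0.03 over all genes, and 24 genes were positive. No gene passed in limma (21 at an unadjusted p under 0.05, or 18.75%, against 8.73% of all genes, smallest adjusted p = 0.283; 0.178% of all genes passed, 0.129% as higher and 0.0491% as lower). Every response of Roma was below every response of M-81E for 32 genes (28.6%, against 13% of all genes) and above for 4 (3.57%, against 12.3%). With M-81E control replicate 2 left out the median was -0.24 and 0 genes passed. With replicate 1 left out it was -1.19, and 16 passed as lower (14.3%, against 6.69% of all genes passing in that setting).

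For 11 genes both salt libraries were above both control libraries in M-81E and below both in Roma (9.82%, against 4% of all genes), and the opposite held for 1, the class III peroxidase SORBI_3001G080300 (0.893%, against 3.31%). Salt libraries were above control in both strains for 6 genes (5.36%, against 7.22%) and below in both for 4 (3.57%, against 9.41%). With M-81E control replicate 1 alone as the control, 13 genes were above it in M-81E and below control in Roma (11.6%, against 8.67%). Of the 11, 10 were class III peroxidases. SORBI_3002G391800 had 4.13 and 5.67 FPKM in Roma salt against 19.2 and 19.9 in Roma control, and 23.3 and 17.7 in M-81E salt against 10.8 and 1.44 in M-81E control. Its difference of responses, -3.80 ± 0.97 (SE; adjusted p = 0.362), was the most negative among genes without overlap. SORBI_3009G186500 followed with -3.16 ± 0.76 (adjusted p = 0.333), and had 2.99 and 3.88 FPKM in Roma salt against 10.4 and 8.18 in Roma control. SORBI_3006G079300 (-3.02), SORBI_3006G277500 (-2.69) and SORBI_3010G162000 (-2.45) came next. In the other direction the peroxiredoxin SORBI_3003G124300 had a difference of 0.43 ± 0.32 (adjusted p = 0.748).

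Between the strains, 19 peroxidase-annotated genes differed in at least 1 treatment. All genes of the table were higher in Roma by a median log2 of 0.29 under salt and 0.30 in control. Quantile scaling brought these shifts to 0.05 and 0.03, so counts are read against them. Under salt the median of the 112 genes was -0.22, or -0.51 below that of all genes, and in control it was 0.43, or 0.13 above. Under salt 4 genes passed as higher in Roma and 4 as lower (7.14%, against 8.42% of all genes, 6% higher and 2.41% lower). Both Roma libraries were below both M-81E libraries for 44 genes (39.3%, against 19.5%) and above both for 24 (21.4%, against 48.1%). In control 13 passed as higher in Roma and 3 as lower (14.3%, against 12.1%, 8.35% higher and 3.76% lower). Here 45 genes lay above without overlap (40.2%, against 42.7%) and 13 below (11.6%, against 16.8%). The median in control was -0.023 once M-81E control replicate 2 was left out, and 1.02 once replicate 1 was. With quantile scaling 5 genes were higher in control and 3 lower, against 3 higher and 4 lower under salt. These are 7.14% in control, against 9.31% of all genes, and 6.25% under salt, against 6.33%.

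Under salt the smallest adjusted p was that of SORBI_3002G010700, a class III peroxidase that also carries the term response to salt stress. It had 4.35 and 2.74 FPKM in Roma salt against 37.1 and 36.4 in M-81E salt, and 2.65 and 2.61 in Roma control against 31.9 and 16.9 in M-81E control. All Roma libraries were below all M-81E libraries. The log2 difference was -3.08 ± 0.34 under salt (SE; adjusted p = 0.00648 in limma) and -2.74 ± 0.34 in control (adjusted p = 0.00846). Across 15 other settings the log2 difference lay between -3.37 and -2.82 under salt and between -3.18 and -2.30 in control.

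Under salt 3 more genes were lower in Roma. SORBI_3006G277500 differed by -3.17 ± 0.54 (adjusted p = 0.0235), with the values given above, and SORBI_3006G277550 of the same run by -1.37 ± 0.31 (adjusted p = 0.0495), at 0.475 and 0.240 FPKM in Roma salt against 3.34 and 1.80 in M-81E salt. SORBI_3009G055300, annotated to cell wall organization and in 1 run with the most abundant gene, had 13.4 and 21.6 FPKM in Roma salt against 92.8 and 70.9 in M-81E salt, a difference of -2.18 ± 0.41 (adjusted p = 0.0323). The most abundant gene itself, SORBI_3009G055100, had differences of -1.89 ± 0.45 under salt (adjusted p = 0.0560) and -1.39 ± 0.45 in control (adjusted p = 0.0943).

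Another 4 genes were higher in Roma in both treatments. SORBI_3003G152100, annotated to cell wall organization, had 19.6 and 24.5 FPKM in Roma salt against 8.95 and 3.26 in M-81E salt, and 19.8 and 17.3 in Roma control against 3.68 and 3.91 in M-81E control. The Roma libraries were all above the M-81E libraries (log2 1.81 and adjusted p = 0.0482 under salt, 2.02 and 0.0304 in control). SORBI_3002G416900, annotated to lignin synthesis, had 3.99 and 3.28 FPKM in Roma salt against 0.561 and 0.824 in M-81E salt, and 5.96 and 4.34 in Roma control against 0.412 and 0.258 in M-81E control (adjusted p = 0.0199 under salt, 0.00546 in control). SORBI_3002G003400, of the cell wall group, was higher by 1.37 and 1.28 (adjusted p = 0.0180 and 0.0183), with 10.6 and 8.73 FPKM in Roma salt against 2.79 and 3.45 in M-81E salt, and 8.37 and 7.16 in Roma control against 2.40 and 2.82 in M-81E control. SORBI_3007G148300, a respiratory burst oxidase, had 9.62 and 8.79 FPKM in Roma salt against 2.81 and 3.28 in M-81E salt, and 10.1 and 8.56 in Roma control against 3.88 and 2.96 in M-81E control (log2 1.34 and adjusted p = 0.0187 under salt, 1.23 and 0.0202 in control).

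The other genes higher in Roma passed in control, where the low value of M-81E control replicate 2 enters for some. SORBI_3003G127100, the most abundant of them and annotated to cell wall organization, had 55.3 and 52.8 FPKM in Roma control against 16.9 and 5.51 in M-81E control (log2 2.35 ± 0.51, adjusted p = 0.0373). SORBI_3001G328100, of the lignin group, had 7.15 and 6.67 FPKM in Roma control against 2.10 and 0.231 in M-81E control (log2 2.02 ± 0.45, adjusted p = 0.0398). SORBI_3009G032800, SORBI_3009G032700, SORBI_3002G307900 and SORBI_3003G250000, all of the cell wall group, and SORBI_3003G391900, which has no code, passed with changes of 1.30 to 2.04. The first pair lies in 1 run on chromosome 9, next to SORBI_3009G032600, which did not pass. SORBI_3002G214200, a second respiratory burst oxidase, named after its values were seen, had 17.9 and 17.6 FPKM in Roma control against 9.71 and 7.47 in M-81E control (log2 0.97, adjusted p = 0.0312). SORBI_3006G135800, of the cell wall group and likewise named after its values were seen, had 2.80 and 2.03 FPKM in Roma control against 0.540 and 0.372 in M-81E control (log2 1.22, adjusted p = 0.0322). The lower genes in control besides SORBI_3002G010700 were SORBI_3010G149700 (-1.92, adjusted p = 0.0117), with 2.09 and 1.31 FPKM in Roma control against 10.3 and 8.04 in M-81E control, and SORBI_3001G080300 (-1.59, adjusted p = 0.0437). Among genes that did not pass, SORBI_3003G050300 had 146 and 40.3 FPKM in Roma control against 23.8 and 10.95 in M-81E control, and SORBI_3008G010400 had 2.74 and 3.01 FPKM in Roma control against 20.4 and 6.32 in M-81E control.

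**Figure D4:**
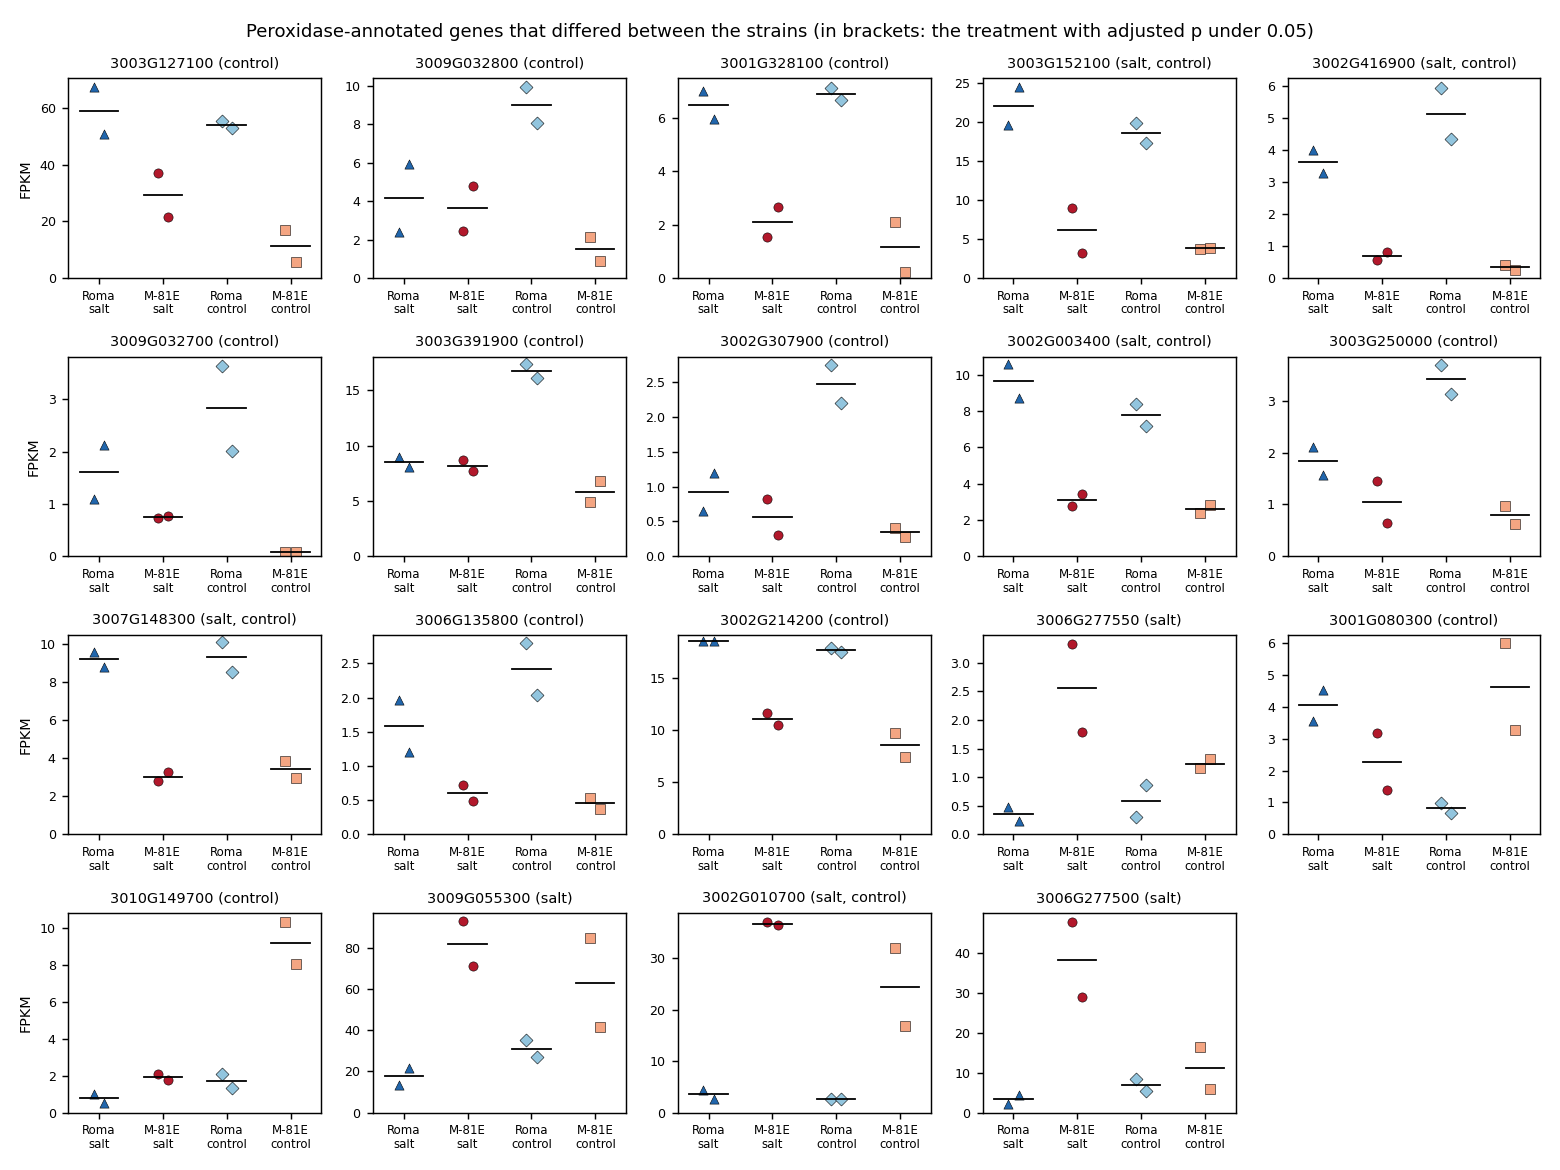
FPKM in each library of the 19 peroxidase-annotated genes that passed in a comparison of Roma with M-81E (salt, control or both, in brackets), with bars at group means; each axis starts at 0. SORBI_3002G010700 lies at 2.61 to 4.35 FPKM in Roma and 16.9 to 37.1 in M-81E.

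The strain calls depend on which libraries are kept and on how they are fitted. The naming rule takes 21 calls in 17 of these genes. All 21 passed without the trend in the prior, 16 with 0.1 added to FPKM in place of 1, and 14 with quantile scaling. It was 14 with no filter on low values, and 10 of the 11 covered with a mean of at least 5 FPKM. With only the 2 groups fitted 6 of the 21 passed, and with a replicate block (a term for the replicate number) 4. With 1 library left out, fewest of these calls passed without a Roma control library and most without an M-81E control library. Calls over all genes also fell, in both treatments, without any 1 Roma library or M-81E salt library, and rose without an M-81E control library. Each such fit leaves 1 library in a group.

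Other genes of hydrogen peroxide turnover and of the lignin pathway were counted from the same annotation column. None of the 7 tested superoxide dismutases (which make hydrogen peroxide from superoxide) or 7 tested L-ascorbate peroxidases passed in any of the 5 comparisons. Of 3 catalases, which break hydrogen peroxide down, SORBI_3004G011566 passed as higher under salt in each strain and in Roma in each treatment. It had 48.1 and 44.4 FPKM in Roma salt against 11.4 and 9.98 in Roma control, and 15.8 and 13.7 in M-81E salt against 3.84 and 2.59 in M-81E control. Of 5 glutathione peroxidases 1, SORBI_3001G119400, was higher in Roma in both treatments. The 6 tested genes of phenylalanine ammonia-lyase, the entry enzyme of the phenylpropanoid pathway, had a median log2 change of 0.38 under salt in Roma and 1.40 in M-81E, and none passed. How far the M-81E value rests on M-81E control replicate 2 was not tested. Of 13 tested cinnamyl-alcohol dehydrogenases, which make lignin monomers, 1 was higher and 3 lower in Roma under salt, and 2 higher and 3 lower in control. The neighbours SORBI_3010G071900, SORBI_3010G072000 and SORBI_3010G072100 were the lower ones in control. Of the 49 tested genes of lignin synthesis outside the peroxidase-annotated genes, 5 were higher and 6 lower in Roma under salt, and 9 higher and 6 lower in control. The 2 higher and 3 lower dehydrogenases of the control comparison are among these genes too, so the counts overlap. Over all genes, 8.42% passed between the strains under salt and 12.1% in control. All 5 genes with the term NAD(P)H oxidase activity are among the peroxidase-annotated genes, and no gene was found for laccase under the term searched.

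The 4 peak lists name the genes that the authors' peaks of antibody-enriched over input RNA lie in, 1 list per strain and treatment. With 1 list each there is no replicate, and no test was made. At least 1 peak was listed for 48 of the 161 peroxidase-annotated genes (29.8%) and for 34 of the 139 class III peroxidases (24.5%). Over the whole table it was 10969 of 29033 genes (37.8%). Among genes with a mean of at least 1 FPKM, 30 of 95 class III peroxidases had a peak in any list (31.6%, against 63.4% of all genes at that level), and 7 had one in all 4 (7.37%, against 27.5%). By list the share was 18.9% in Roma salt (all genes 57%), 10.5% in Roma control (31%), 15.8% in M-81E salt (49.4%) and 22.1% in M-81E control (47.7%). The lists differ in length, with 12080, 5949, 10255 and 10219 peaks in the same order.

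The share was smaller than that of all genes in each of 4 ranges of FPKM from 1 up. If enriched fragments were counted, m6A itself enters the FPKM, and the ranges then need not match RNA level. Among class III peroxidases with a mean of at least 50 FPKM, 8 of 18 had a peak in any list (44.4%), against 1387 of 1524 genes at that level (91.0%). From 20 to 50 FPKM it was 10 of 15 (66.7%, against 86.3%), from 5 to 20 FPKM 11 of 31 (35.5%, against 74.6%) and from 1 to 5 FPKM 1 of 31 (3.23%, against 38.9%). Below a mean of 1 FPKM it was 4 of 44 (9.09%, against 5.05% of all genes). Of the peroxidase-annotated genes without the class III code, 14 of 17 with a mean of at least 1 FPKM had a peak (82.4%), namely 1 of 4 from 1 to 5 FPKM and 13 of 13 above that. All 5 tested respiratory burst oxidases had one. The 2 most abundant genes, SORBI_3009G055100 and SORBI_3009G145500, had no peak in any list, as did 5 of the first 10 and 11 of the first 20. However, SORBI_3009G055000, in 1 run with SORBI_3009G055100 and with a mean of 0.447 FPKM, had 3′ UTR peaks in all 4 lists. Whether peaks were assigned to the right copy within a run was not tested. The share among the 67 tested genes of the tandem runs was 29.9%.

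**Figure D5:**
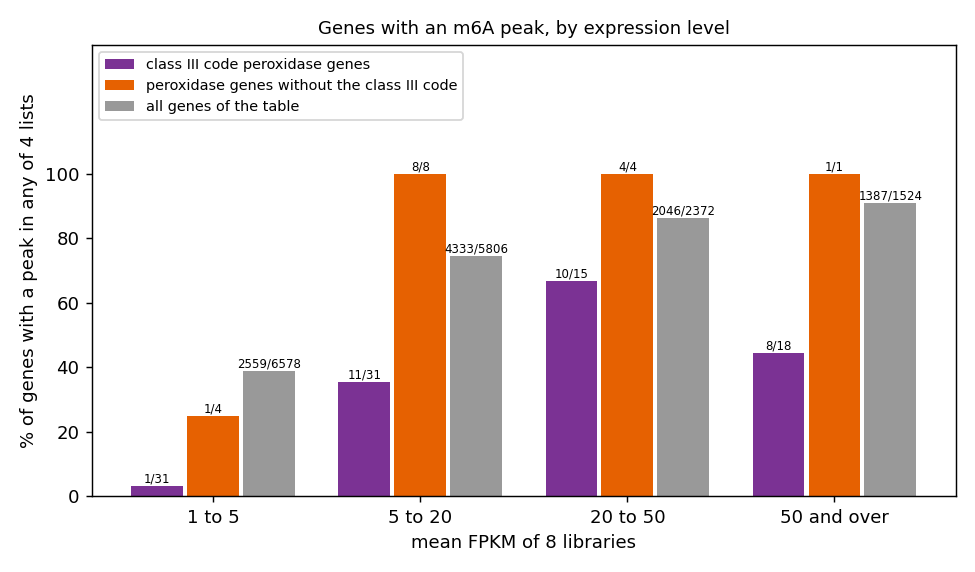
Share of genes with a peak in any of the 4 lists, by mean FPKM, for class III peroxidases, the other peroxidase-annotated genes and all genes of the table; the fractions printed over the bars are genes with a peak and genes in the bin. At 50 FPKM and over the share is 44.4% for class III peroxidases and 91.0% for all genes. If enriched fragments gave the FPKM, the bins depend on m6A as well as on RNA level.

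The peaks of class III peroxidases lay in the 3′ UTR in 57 of 92 entries (62.0%), in the 5′ UTR in 15 (16.3%) and in an exon in 20 (21.7%). For the other peroxidase-annotated genes 46 of 54 entries were in the 3′ UTR (85.2%), and for all genes 76.6% were. The authors' fold enrichment had a median of 6.71 for class III peroxidases, 23.8 for the other peroxidase-annotated genes and 15.8 for all entries that name a gene of the table. A few genes have overlapping double entries, which were counted as listed.

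SORBI_3003G140700 had a 3′ UTR peak in all 4 lists, on chromosome 3 from 13710765 to 13710824 in Roma salt. Its fold enrichment was 2.96 in Roma salt, 5.09 in Roma control, 7.84 in M-81E salt and 10.4 in M-81E control (coordinates as listed, with no genome build named). SORBI_3010G245800, a class III peroxidase with neither wall annotation and a mean of 61.8 FPKM, had both a 5′ and a 3′ UTR peak in every list. Its 5′ UTR peak, on chromosome 10 from 58564290 to 58564557 in Roma salt, had a fold enrichment of 41.4 there, 51.0 in Roma control, 22.5 in M-81E salt and 41.3 in M-81E control. Its 3′ UTR peak had 13.8, 20.1, 15.7 and 5.17 in the same order.

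Several abundant class III peroxidases had a peak in 1 list, and 7 of the 13 such genes had it in M-81E control. Among these, SORBI_3003G121100 had a 5′ UTR peak (fold 3.81), SORBI_3010G162000 a 5′ UTR peak (4.34), SORBI_3009G055300 a 5′ UTR peak (9.79) and SORBI_3003G152200 a 3′ UTR peak (3.25). SORBI_3009G145600 had an exon and a 5′ UTR peak there, with folds of 1.32 and 97.1. SORBI_3003G183300 had an exon peak in Roma salt (3.01). SORBI_3005G011300 had exon peaks in 2 lists, with folds of 1.5 in Roma salt and 2.08 in M-81E control. All but SORBI_3009G055300 and the 5′ UTR peak of SORBI_3009G145600 were below the median fold of class III peroxidases.

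The strain gene SORBI_3002G010700 had a 3′ UTR peak in both M-81E lists, with folds of 12.1 in M-81E salt and 6.82 in M-81E control, and none in the Roma lists, where its level was also lower. In the respiratory burst oxidase SORBI_3007G148300 a 3′ UTR peak on chromosome 7, from 57926381 to 57926708 in Roma salt, had a fold of 249 there, 218 in Roma control, 14.9 in M-81E salt and 32.5 in M-81E control. The authors' log10 p of this peak was -385, -74.1, -42.8 and -58.8 in the same order, and the gene's mean was 6.25 FPKM. Whether low input values enter these folds was not tested. SORBI_3009G206500, the most abundant respiratory burst oxidase with a mean of 55.0 FPKM, had 3′ UTR folds of 38.8 in Roma salt, 25.6 in Roma control, 31.2 in M-81E salt and 13.5 in M-81E control. SORBI_3002G214200 had 101, 88.1, 46.3 and 67.4 in that order. A total of 4 genes had a peak at a mean under 1 FPKM, SORBI_3009G055000 among them. Another of these, SORBI_3002G391900, was listed at 0 in 7 of 8 libraries while its exons carried peaks in all 4 lists.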

How the data were processed

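Values of 16 samples (4 groups, IP and input, 2 replicates each) stand behind 1 deposited expression table and 4 deposited peak lists. Per the file headers the authors' expression values are FPKM. The authors' fold enrichment is a ratio, and 2 score columns give log10 p and log10 false discovery rate, per the file headers. Tools in the submitters' processing notes, with no roles stated, are HISAT2, StringTie, ChIPseeker, edgeR, cutadapt and FastQC. How peaks were called, whether replicates were pooled for them, which annotation served and whether IP or input fragments gave the FPKM values are not stated in the sources. Read totals behind the FPKM values are unknown here, so no counting error is given.

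Here, log2(FPKM + 1) of the 16280 genes with a mean of at least 1 FPKM was fitted with limma 3.58.1 (R 4.3.3), with 1 mean for each of 4 groups, 4 residual degrees of freedom and a trended prior. P-values are Benjamini-Hochberg adjusted over all genes, with a threshold of 0.05. With 2 libraries a group the precision is low, and log2 changes of low genes are understated by the pseudocount. The script was tested on simulated data. Genes named are the 10 most abundant, those that passed (10 at most per direction and comparison), the 10 most abundant with a peak, the higher members of the largest tandem runs (3 runs of 5 tied), and the 5 of largest change without overlap and with a mean of at least 5 FPKM per direction and comparison. The peroxidase-annotated genes, the lists and the rules were chosen with earlier results of these data known. Gene IDs are those of the files. Expression columns were mapped through the sample descriptions.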

Additional observations from a re-analysis of the deposited data

How the results depend on the processing

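With any 1 library left out, the number of peroxidase-annotated genes that passed ranged from 0 to 4 for salt in Roma, 0 to 33 for salt in M-81E, 0 to 30 for Roma against M-81E under salt, 1 to 43 in control, and 0 to 16 for the difference of the responses. The highest counts were reached without an M-81E control library, whose lone partner is then assumed to vary like the other groups. Calls over all genes were also at 1.90% or 1.91%, 19.1%, 25.2%, 25.6% and 6.69% in those settings, in the same order of comparisons. The median in the control comparison of the strains reversed to -0.023 without M-81E control replicate 2 and was 1.02 without replicate 1. It was 0.05 and 0.96 for salt in M-81E and -0.24 and -1.19 for the difference of the responses, in the same order. The medians for salt in Roma (-0.29 to -0.22) and for the strains under salt (-0.32 to -0.11) stayed negative with every library left out. For salt in Roma, 1 of 161 genes passed with no filter on low values (130 over all genes). With only the 2 groups fitted 4 passed (3.57%, against 1.33% of all genes). For the strains in control 16 of 112 passed in the main fit. It was 7 of 77 with a mean of at least 5 FPKM (1047 over all genes) and 8 of 112 with quantile scaling (7.14%, against 9.31%). The stricter level tests fewer genes, so its count can fall without a fall in the share. With only the 2 groups fitted it was 0 (1.82% of all genes). Under salt, where 8 of 112 passed in the main fit, 5 of 77 passed with a mean of at least 5 FPKM (654 over all genes). With only the 2 groups fitted 16 passed (14.3%, against 9.95%). With a replicate block 3 passed in control (2.68%, against 1.83%) and 1 under salt (0.893%, against 1.21%), and 0 in the other comparisons. Differences between replicates 1 and 2 were correlated by -0.0376 to 0.0384 between groups, so equal numbers were not treated as pairs. The cause of these changes was not tested.

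Among the stronger entries of each list, cut at its median false discovery rate, which lowers any count, 18 of 33 genes kept a peak in Roma salt (54.5%, against 54.5% of all genes with a peak), 11 of 21 in Roma control (52.4%, against 52.1%), 16 of 29 in M-81E salt (55.2%, against 53.1%) and 14 of 36 in M-81E control (38.9%, against 53.8%). Without that cut, and for class III peroxidases alone, chosen after seeing the data, 20, 12, 19 and 24 of 139 had a peak in the same order. These are 14.4% (all genes 33.6%), 8.63% (17.9%), 13.7% (28.8%) and 17.3% (27.8%). Assigning peaks by overlap with the gene's span, without strand because the lists give none for peaks, left the counts of all peroxidase-annotated genes at 33, 21, 29 and 36. Runs held 83 genes with no other gene between neighbours and 96 with up to 5. Of 839 values of single named genes under other settings, 671 kept their side of the threshold, 139 no longer passed, 29 passed only there and none reversed. These values cover 57 results. Only the 21 calls of the main fit could stop passing, so all 139 fall on those calls. The 671 include values that passed neither in the main fit nor in the other setting. Their share of the 839 therefore does not describe how stable the 21 calls were. Of these 21, 6 passed with only the 2 groups fitted and 4 with a replicate block. Depth is unknown, so low values have no counting error.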
